A study of Homo sapiens with 8 samples.

Results

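The 3 libraries compared here came from mesenchymal stromal cells frozen in the solutions labelled SMC, SGC and SGI, and they were taken by their sample titles, 3 of the 8 libraries of the series. H9, the parent of these cells, is an established line of human embryonic stem cells, and the stromal cells were used between passages 8 and 12. Cells in SMC were held for 2 h at room temperature, cells in SGC for 1 h and cells in SGI for 1 h, and all of them were frozen at 3 °C per minute. The other libraries, used for context, were 2 of cells frozen in DMSO at 1 °C per minute after 1 h and 0 h, and 3 of fresh cells, taken at 0 h, after a DMSO hold of 1 h or after a medium hold of 1 h. Separate cultures are not stated, and with 1 library for each condition no comparison has a replicate and no p-value is given. The levels were compared gene by gene for the 12289 of 23354 genes that had a count of 100 or more in at least 1 of the 3 libraries. Of the genes at that limit, 35 had a highest count of 100 and were kept, and 38 had a highest count of 98 and were left out.

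Cells are frozen with a protective solution because ice and the concentrated salt around it damage membranes. DMSO is the usual agent. Mixtures of small osmolytes such as sugars, polyols and amino acids are an alternative that avoids DMSO. The labels give the 3 solutions by their letters. In published descriptions of these mixtures the letters stand for sucrose with mannitol and creatine (SMC), sucrose with glycerol and creatine (SGC), and sucrose with glycerol and isoleucine (SGI). SGC and SGI thus differ in 1 component at the same hold time. SMC differs from SGC in 1 component and from SGI in 2, and its hold was longer, so for SMC the solution and the hold time cannot be told apart.

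Counts summed to 41903498 in SMC, 44359714 in SGC and 43158014 in SGI, and to between 41198716 and 51166666 over all 8 libraries. Levels are CPM, the library's counts scaled to a common total by edgeR's trimmed mean method. Each difference is a log2 ratio of such levels, computed after a prior count of 2 was added. Intervals of 95% on a log2 ratio are exact binomial ones. They cover counting error only and say nothing of the spread between cultures. The stromal markers were present in all 3 libraries. NT5E (CD73) was at 154 CPM in SMC, 167 CPM in SGC and 171 CPM in SGI, THY1 (CD90) at 289, 297 and 258 CPM, and ENG (CD105) at 209, 192 and 196 CPM. The 19 stromal markers summed to between 10000 and 10900 CPM in the 3 libraries, and none of the 18 that passed the count minimum was called in either comparison. The 10 blood cell markers summed to between 5.93 and 6.14 CPM, with CD3E and HLA-DRA at a count of 0 in all 3. The 15 pluripotency markers summed to 35.3 CPM in SMC, 36.8 CPM in SGC and 42.0 CPM in SGI, with POU5F1 at 4.29, 4.51 and 5.45 CPM. In such bulk samples, fewer cells of a type and less RNA per cell cannot be told apart.

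The RNA of the 3 osmolyte libraries differed little from each other and far more from all other libraries. These 3 also shared a cooling rate of 3 °C per minute, against 1 °C per minute for DMSO-frozen cells. For their distance from the other libraries, solution and cooling rate therefore cannot be told apart. Between SGC and SGI, 18 genes were at least 2-fold apart, and the median absolute log2 ratio over all genes was 0.101. SMC and SGC were at least 2-fold apart at 50 genes, and SMC and SGI at 61. The DMSO-frozen libraries held for 1 h and 0 h differed at 17 genes, which is about the distance of SGC and SGI, and the 3 pairs of fresh libraries at 57, 69 and 104. The 3 osmolyte libraries lay 249 to 365 genes away from DMSO-frozen cells and 472 to 684 genes away from fresh cells. Every pair was counted over genes that reached the minimum count in SMC, SGC or SGI. Genes abundant only in DMSO-frozen or fresh cells were therefore left out of these counts. With a limit of 1.5-fold, SMC stood apart from both other solutions at 24 genes that were higher and 124 that were lower in SMC. SGC stood apart from SMC and SGI at 19 higher and 20 lower genes, and SGI from SMC and SGC at 31 higher and 16 lower genes.

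**Figure D1:**
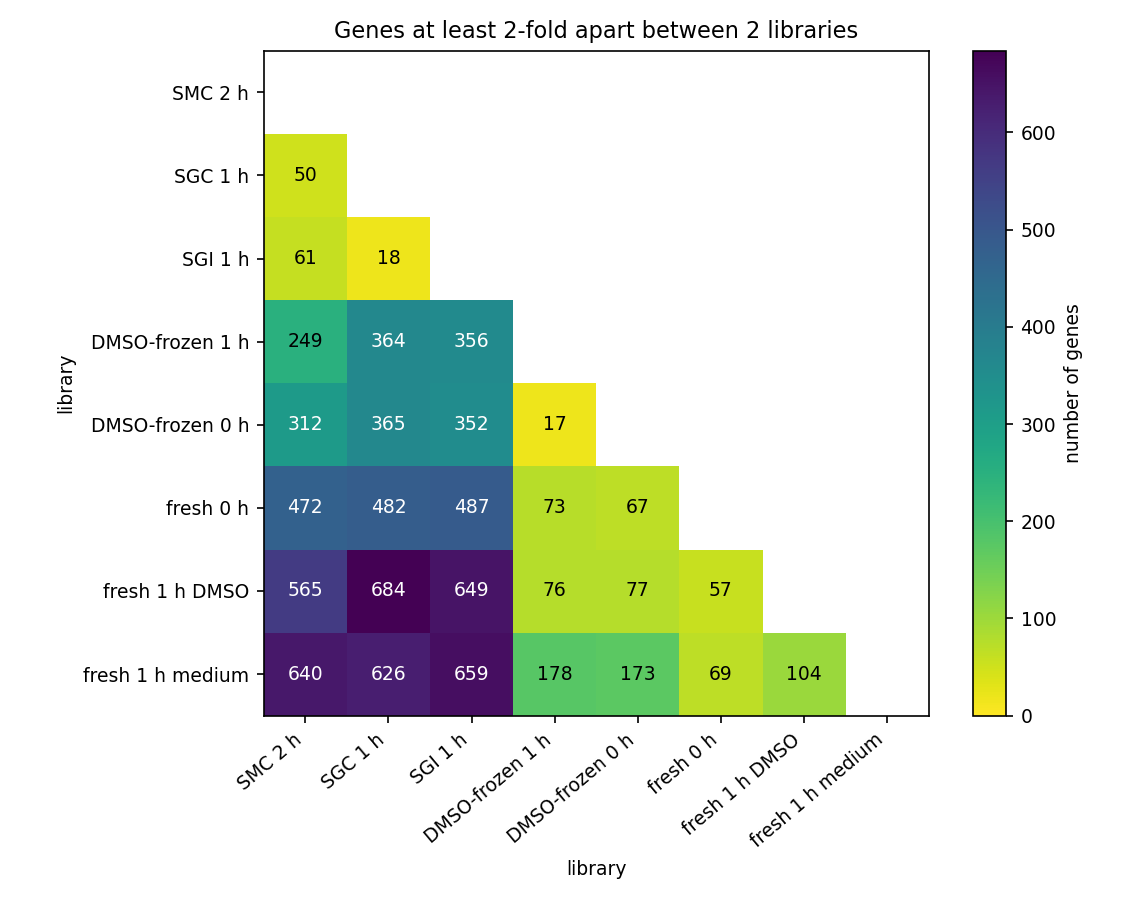
Number of genes at least 2-fold apart for each of the 28 pairs of libraries, with libraries on both axes and 1 library per condition. The 3 pairs among SMC, SGC and SGI hold 50, 61 and 18 genes, against 249 to 684 genes for every pair of an osmolyte library with a DMSO-frozen or fresh one.

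SGC against SGI asks what changes when 1 component of the solution is exchanged at the same hold time. Of the genes compared, 4 were at least 2-fold higher in SGC (0.0325%) and 14 at least 2-fold lower (0.114%). With a limit of 1.5-fold, 52 were higher in SGC (0.423%) and 99 were lower (0.806%). That split depended on abundance. Among genes that reached a count of 500 in at least 1 of the 3 libraries, 13 were higher in SGC and 3 were lower. Scaled by library totals, 26 of all genes compared were higher and 163 lower. The median highest count was 200 for the 52 higher genes and 144 for the 99 lower ones, so the lower genes were mostly weakly expressed. The counting interval excluded a log2 ratio of 0 for 46 of the 52 and 91 of the 99. These genes were picked by the same counts, so the intervals are no separate support for the calls.

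Rapidly induced transcription factors were among the more abundant genes higher in SGC. Immediate early genes are switched on within minutes of a stimulus without new protein synthesis, and their RNAs are short-lived. They encode AP-1 subunits (FOS, FOSB, JUN), zinc finger factors (EGR1), orphan nuclear receptors (NR4A1) and regulators of RNA decay (ZFP36). Of the 30 genes on the list, 26 passed the count minimum. Of these, 6 were at least 1.5-fold higher in SGC than in SGI and 0 were lower, beside 0.423% and 0.806% of all genes compared. The median log2 ratio of SGC over SGI was 0.30 for the list and 0.02 for all genes, and 22 of the 26 were above 0.

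NR4A1, an orphan nuclear receptor, was at 10.4 CPM in SMC, 29.2 CPM in SGC and 14.2 CPM in SGI. Its log2 ratio of SGC over SGI was 1.03, with a counting interval from 0.84 to 1.23. It was the sole gene with at least 5 CPM that was 2-fold higher in SGC. That log2 ratio was 0.95 with library totals and 0.97 with the deposited values per kilobase (RPKM), both just under 2-fold. NR4A1 was at 5.34 and 4.98 CPM in DMSO-frozen cells at 1 h and 0 h. In fresh cells it was at 67.5 CPM at 0 h, 7.82 CPM after 1 h in DMSO and 105 CPM after 1 h of medium alone. SGC was thus above SMC, SGI and every DMSO-treated library, and below the fresh libraries without DMSO.

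FOS, an AP-1 subunit and the most widely used mark of recent stimulation, was at 122 CPM in SMC, 428 CPM in SGC and 247 CPM in SGI. DMSO-frozen cells had 77.8 CPM at 1 h and 156 CPM at 0 h. Fresh cells had 532 CPM at 0 h, 72.6 CPM after 1 h in DMSO and 734 CPM after 1 h of medium alone. The order SGC, SGI, SMC held for FOS with log2 ratios of 0.80 for SGC over SGI and -1.42 for SMC against the mean of the other 2 solutions. SMC lay within the range of the DMSO-frozen libraries, and SGC was closest to the fresh library at 0 h.

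The same order held for 4 further genes of this group. FOSB was at 80.3 CPM in SMC, 254 CPM in SGC and 140 CPM in SGI, with a log2 ratio of SGC over SGI of 0.86. ATF3, a stress-induced repressor, was at 13.2, 40 and 20.2 CPM in SMC, SGC and SGI, with a log2 ratio of 0.98. ZFP36, which binds AU-rich RNAs and speeds their decay, was at 43.5, 105 and 57.4 CPM, with a log2 ratio of 0.87. DUSP1, a phosphatase that switches off MAP kinases, was at 140 CPM in SMC, 390 CPM in SGC and 267 CPM in SGI. Its log2 ratio of SGC over SGI was 0.54 and missed the limit of 1.5-fold, but DUSP1 was called lower in SMC.

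EGR1 did not follow that order. It was at 303 CPM in SMC, 410 CPM in SGC and 246 CPM in SGI, so SGC was again the highest, with a log2 ratio of 0.74 over SGI, but SMC lay between the other 2. EGR1 in SMC differed from the mean of SGC and SGI by a log2 ratio of -0.07. DMSO-frozen cells had 131 and 275 CPM at 1 h and 0 h, and fresh cells had 624, 144 and 1301 CPM at 0 h, after 1 h in DMSO and after 1 h of medium alone. Members that were not called ranged widely. JUNB was at 96 CPM in SMC, 147 CPM in SGC and 102 CPM in SGI, and BHLHE40 at 77.6, 119 and 80.8 CPM, both with SGC highest. JUN was at 392 CPM in SMC, 446 CPM in SGC and 407 CPM in SGI, and FOSL2 at 127, 123 and 129 CPM. FOSL1 was at 33.7, 36.0 and 42.2 CPM, one of the 4 members with a ratio below 0.

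**Figure D2:**
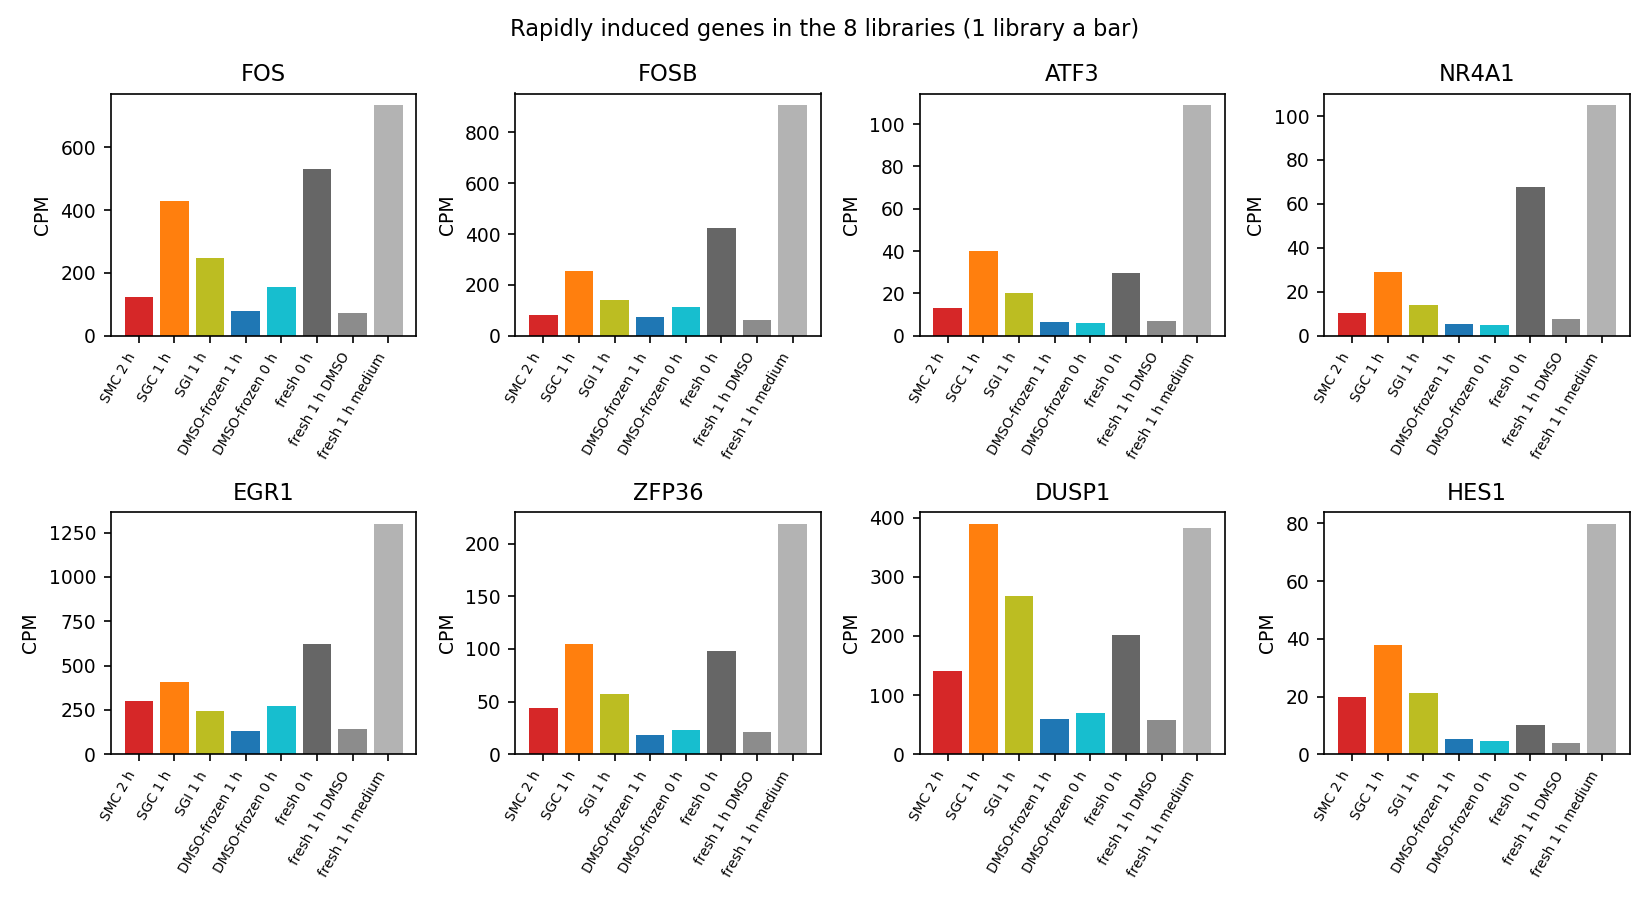
Levels in CPM on linear axes of 8 rapidly induced genes, with 1 bar per library and no error bars because each condition had 1 library. SGC is the highest of the 3 osmolyte libraries in all 8 panels, and the fresh library held for 1 h in medium has the highest bar in 7 of the 8, DUSP1 being the exception.

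The sequence upstream of the start site is shown for 4 of the 7 rapid genes called in either comparison, namely those that hold the letters TGACGT, the core of the cyclic AMP response element, on either strand. They are given 5′ to 3′ on the gene's strand, 250 bases up to the start site, from RefSeq on GRCh38.p14, with TGACGT and its reverse complement in capitals. FOS lies at chr14:75278578-75278827 on the plus strand, FOSB at chr19:45467746-45467995 on the plus strand, EGR1 at chr5:138465229-138465478 on the plus strand and DUSP1 at chr5:172771196-172771445 on the minus strand.
FOS: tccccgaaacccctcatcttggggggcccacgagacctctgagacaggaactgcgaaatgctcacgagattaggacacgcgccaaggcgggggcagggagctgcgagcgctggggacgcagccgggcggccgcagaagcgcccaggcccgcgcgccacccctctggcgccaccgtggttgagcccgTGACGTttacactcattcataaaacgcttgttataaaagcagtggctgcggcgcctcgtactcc
FOSB: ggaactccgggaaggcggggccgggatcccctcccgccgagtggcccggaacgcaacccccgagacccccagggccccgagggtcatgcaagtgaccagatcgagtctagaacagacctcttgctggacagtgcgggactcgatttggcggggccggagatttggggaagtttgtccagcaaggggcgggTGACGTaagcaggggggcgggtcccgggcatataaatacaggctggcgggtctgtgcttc
EGR1: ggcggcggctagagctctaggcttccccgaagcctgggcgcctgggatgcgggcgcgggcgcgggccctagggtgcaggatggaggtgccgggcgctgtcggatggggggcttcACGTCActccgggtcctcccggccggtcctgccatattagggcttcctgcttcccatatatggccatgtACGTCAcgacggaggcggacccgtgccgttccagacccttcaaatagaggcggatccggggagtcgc
DUSP1: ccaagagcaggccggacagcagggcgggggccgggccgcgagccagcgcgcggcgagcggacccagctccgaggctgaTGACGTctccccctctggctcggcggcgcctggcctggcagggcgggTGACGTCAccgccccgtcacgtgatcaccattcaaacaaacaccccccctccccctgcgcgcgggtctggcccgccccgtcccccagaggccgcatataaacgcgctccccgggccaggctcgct
TGACGT was found in 4 of the 7 genes FOS, FOSB, ATF3, EGR1, NR4A1, ZFP36 and DUSP1, which have 9 start sites in the table, and in 4 of those 9 windows. Of all 35116 windows of the same length, 7.10% held it. TATAAA was in ATF3, DUSP1, FOS and FOSB, against 10.7% of all windows. The serum response element's CArG box was in EGR1, against 1.16% of all windows. The AP-1 letters TGANTCA were in 0 of the 7, against 6.57% of all windows. These are matches of letters on both strands, and motifs may overlap. Each window was 250 bases, so an element farther upstream would be missed, and a gene without a match may still have one.

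Other signalling genes were higher in SGC too. HES1, a repressor downstream of Notch, was at 19.8 CPM in SMC, 37.7 CPM in SGC and 21.2 CPM in SGI, and no other of the 15 measured Notch pathway genes was called. HES1 was at 4.67 to 5.17 CPM in the DMSO-frozen libraries and 3.88 to 79.9 CPM in the fresh ones. Of 24 chemokine and NF-kappa-B genes measured, 2 were higher in SGC than in SGI and 0 were lower, beside 0.423% and 0.806% of all genes. PTGS2 (cyclooxygenase 2) was at 82.2, 124 and 81.3 CPM in SMC, SGC and SGI, and the chemokine CXCL2 at 2.75, 6.64 and 3.91 CPM. ID4, an inhibitor of basic helix-loop-helix factors, was at 33.9 CPM in SMC, 50.5 CPM in SGC and 33.3 CPM in SGI. For HES1, PTGS2 and ID4, SMC and SGI were close and SGC stood above both.

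For DCN, CCND2 and HIST1H2BD, SGI had the lowest level of the 3 solutions, and SMC was closer to SGC than to SGI. The collagen-binding proteoglycan decorin (DCN) was at 158 CPM in SMC, 174 CPM in SGC and 111 CPM in SGI, a log2 ratio of SGC over SGI of 0.65. All 3 values were above the other libraries, where DCN ranged from 34.1 to 55.3 CPM. The cyclin gene CCND2 was at 5.84, 6.11 and 3.39 CPM in SMC, SGC and SGI, and the histone gene HIST1H2BD at 5.31, 5.71 and 3.69 CPM. A second histone gene, HIST2H2BE, was at 8.01 CPM in SMC, 15.3 CPM in SGC and 9.10 CPM in SGI, so there SGC stood apart. These 2 were the histone genes called, of 10 measured.

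The genes lower in SGC were weaker in level. Of 14 at the 2-fold limit, 12 were under 5 CPM in all 3 libraries. MUC6, a secreted mucin, was at 2.89 CPM in SMC, 2.17 CPM in SGC and 5.02 CPM in SGI, with a log2 ratio of -1.20 and a counting interval from -1.72 to -0.72. MIR612 was at 6.03, 5.53 and 11.9 CPM, with a log2 ratio of -1.10 and an interval from -1.42 to -0.80. Its row covers the 100 bases of a microRNA precursor at chr11:65211929-65212028 (hg19), beyond the end of the table's row for NEAT1 and within the long form of that nuclear RNA. NEAT1 itself was at 415 CPM in SMC, 584 CPM in SGC and 688 CPM in SGI. MIR612 ranged from 3.87 to 10.9 CPM over the other 5 libraries, and MUC6 from 1.48 to 4.28 CPM, so SGI was the highest of all 8 for both.

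Of the listed genes, 3 were lower in SGC at 1.5-fold. HAS2, a hyaluronan synthase, was at 3.71 CPM in SMC, 3.63 CPM in SGC and 6.36 CPM in SGI, and all 3 were below the 14.6 to 31.2 CPM of the other libraries. E2F2, a cell cycle transcription factor, was at 2.17, 1.68 and 3.05 CPM. HSD17B7, an enzyme of cholesterol synthesis, was at 1.5, 1.59 and 2.45 CPM, and its counting interval from -1.26 to 0.01 included 0. The other genes at least 2-fold higher in SGC were ECM2, PID1 and TSPAN11, all under 5 CPM and picked out after their values were seen. ECM2 was at 3.42, 4.16 and 1.98 CPM in SMC, SGC and SGI, PID1 at 3.57, 3.32 and 1.29 CPM, and TSPAN11 at 2.89, 4.38 and 2.10 CPM. PID1 and ECM2 were lowest in SGI, and TSPAN11 was highest in SGC.

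**Figure D3:**
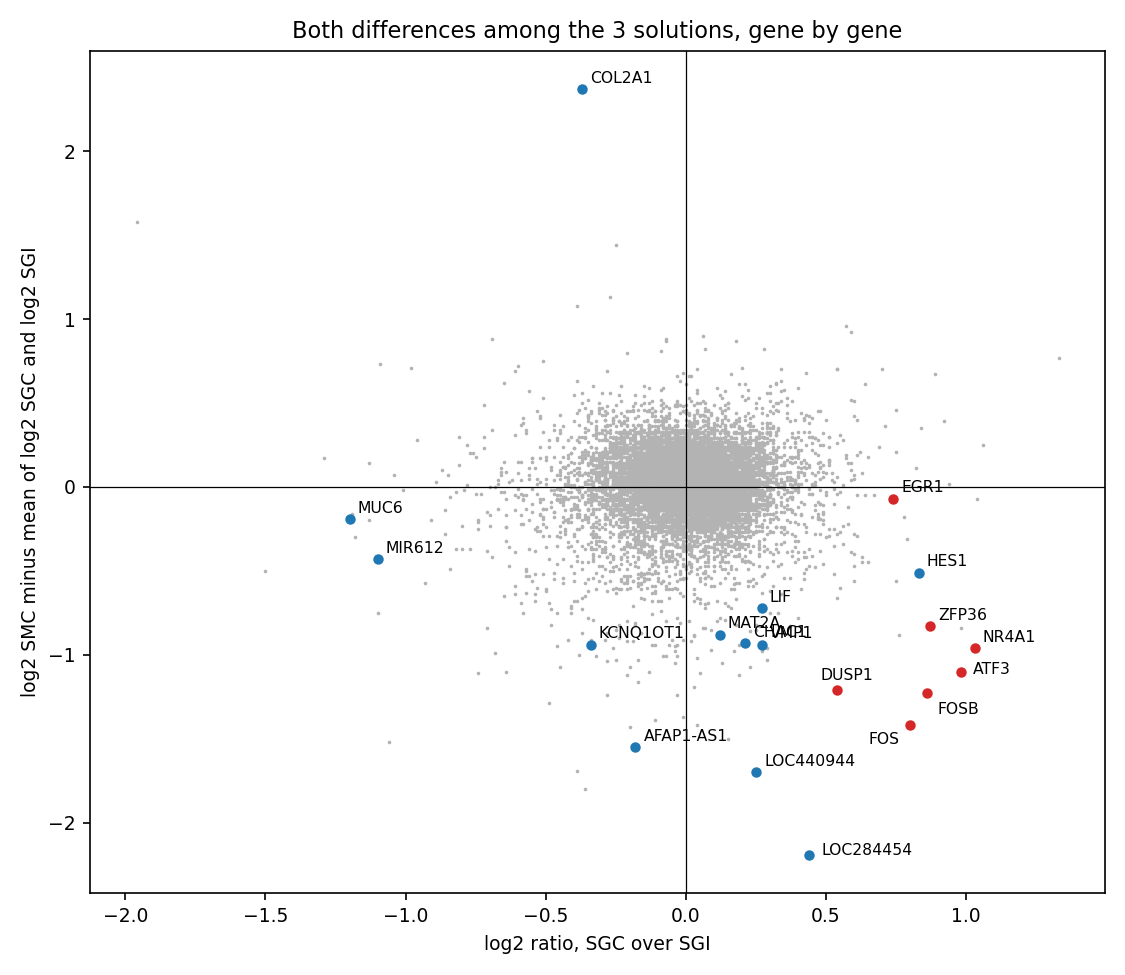
Log2 ratio of SGC over SGI (horizontal) against log2 SMC minus the mean of log2 SGC and SGI (vertical), 1 point per gene for 12289 genes, with the 6 immediate early genes called between SGC and SGI and DUSP1 in red, other labelled genes in blue and all remaining genes in grey. The 7 red points lie to the right, and all of them but EGR1 lie well below 0 on the vertical axis, while COL2A1 is alone at the top at 2.37.

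Whole functional groups differed between SGC and SGI by small amounts. All 30 proteasome genes had a ratio above 0, with a median log2 ratio of 0.09. Of 77 cytosolic ribosomal protein genes, 76 were above 0, with a median of 0.12, and of 44 respiratory chain genes 40 were, with a median of 0.11. All 26 elastic fibre and matrix glycoprotein genes were above 0, with a median of 0.17. Over all genes 54.5% were above 0. None of the genes on these 4 lists reached 1.5-fold. The members of a list were measured in the same 2 libraries, so their number is not replication. Proteasome genes summed to 2910 CPM in SGC and 2730 CPM in SGI. In DMSO-frozen cells at 1 h and 0 h they summed to 2860 and 3010 CPM. Ribosomal protein genes summed to 43500 CPM in SGC and 40100 CPM in SGI, and to 35800 and 35900 CPM in those DMSO-frozen cells. Scaling by library totals lowers every ratio of SGC over SGI alike, and then 17 of the 30 proteasome, 56 of the 77 ribosomal, 27 of the 44 respiratory and 23 of the 26 matrix genes were above 0, against 31.6% of all genes.

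The matrix genes with the largest ratios were abundant. The matrix protein periostin (POSTN) was at 2708 CPM in SMC, 2622 CPM in SGC and 1840 CPM in SGI. Elastin (ELN), the elastic fibre core, was at 42.4, 41.2 and 30.7 CPM, and the adhesive glycoprotein thrombospondin 1 (THBS1) at 2488, 2011 and 1565 CPM. In all 3 the value for SGI was the lowest. Cell division genes ran the other way. Of 32 mitosis genes, 1 was above 0, with a median log2 ratio of -0.18, and of 34 replication genes 6 were above 0, with a median of -0.18. The proliferation marker MKI67 was at 130 CPM in SMC, 109 CPM in SGC and 139 CPM in SGI, and topoisomerase TOP2A at 131, 127 and 148 CPM. With library totals the medians of both division lists were -0.26, and 0 and 2 of their genes were above 0. The mitosis genes summed to 1300 CPM in SGC and 1480 CPM in SGI. In DMSO-frozen cells at 1 h and 0 h they summed to 1690 and 1870 CPM.

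**Figure D4:**
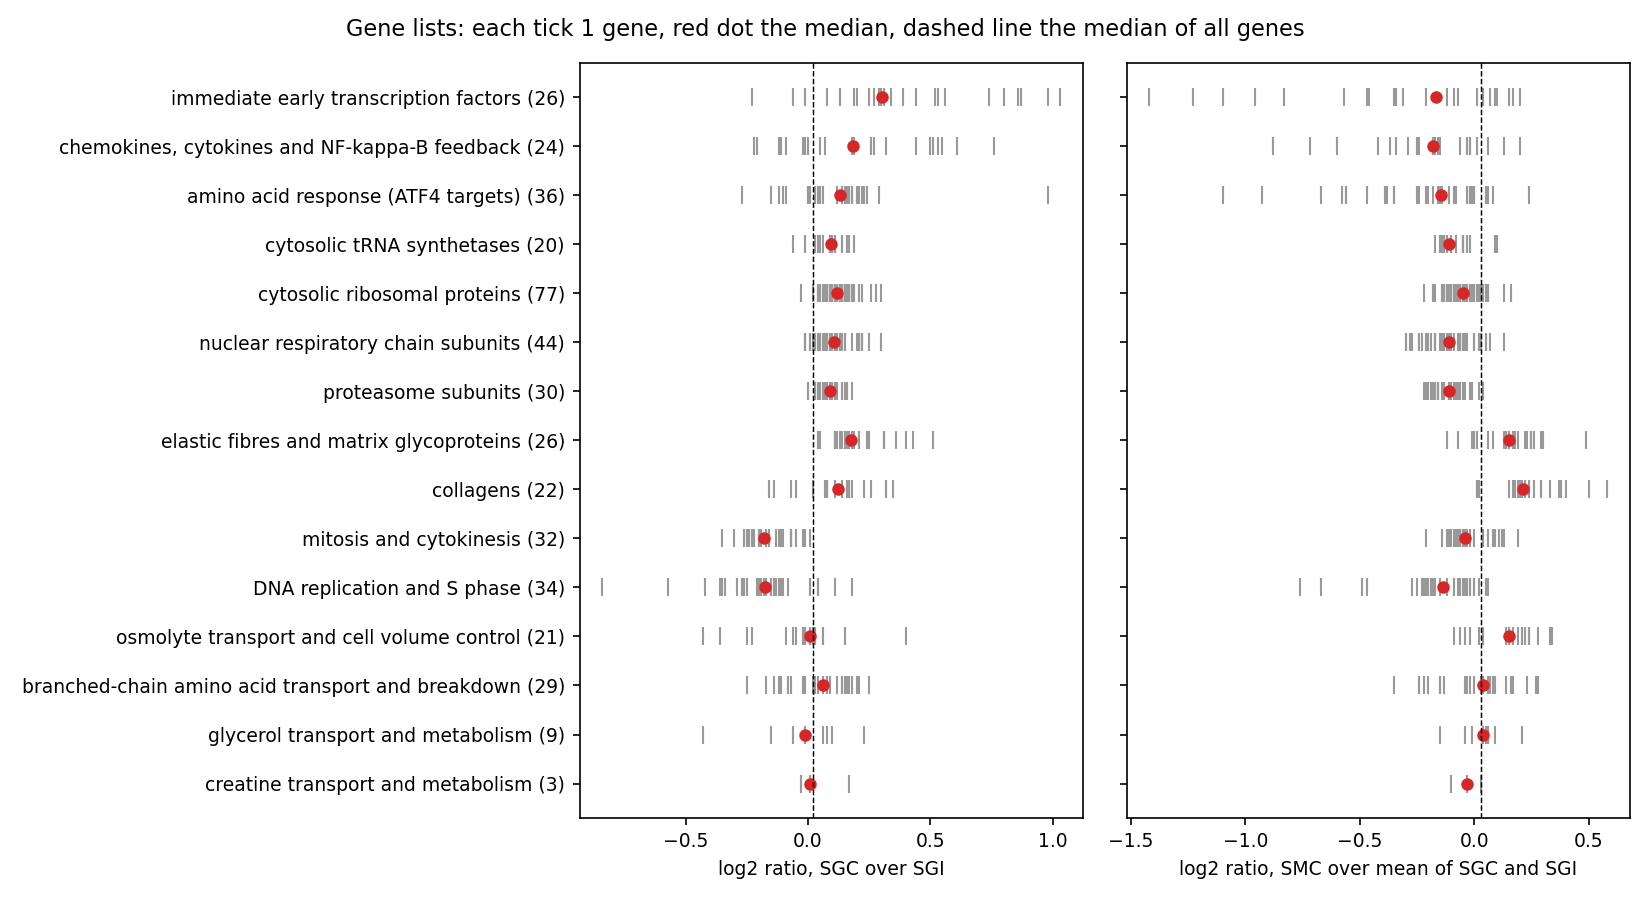
Log2 ratios of the members of 15 gene lists, SGC over SGI on the left and SMC over the mean of SGC and SGI on the right, with the number of measured members in brackets. Each tick is 1 gene, the red dot is the list's median and the dashed line the median of all genes, 0.02 and 0.03. Immediate early genes spread widest in both panels, and the creatine, glycerol and branched-chain amino acid lists centre on the dashed line.

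Genes that handle the solutions' components were next. Creatine is made by GATM and GAMT, taken up by SLC6A8 and phosphorylated by creatine kinases. It is present in SGC but not in SGI by the published compositions. Of 9 genes on the list, 3 passed the count minimum, and 0 were called in either comparison. The creatine transporter gene SLC6A8 was at 21.1 CPM in SMC, 20.5 CPM in SGC and 20.9 CPM in SGI. GAMT was at 19.0 CPM in SMC, 20.4 CPM in SGC and 20.2 CPM in SGI. Creatine kinase B (CKB) was at 8.73, 9.47 and 8.42 CPM. GATM had counts of 4, 8 and 2, too few to compare. The 3 solutions were thus within a log2 ratio of 0.17 of each other for the creatine genes that could be compared between SGC and SGI.

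Isoleucine is a branched-chain amino acid. It enters cells through SLC7A5 with SLC3A2, and is broken down by the transaminases BCAT1 and BCAT2 and the BCKDH complex. Of 30 genes listed 29 passed, and 0 were called. The log2 ratios of SGC over SGI ran from -0.25 to 0.25. SLC7A5 was at 119 CPM in SMC, 154 CPM in SGC and 150 CPM in SGI. SLC3A2 was at 104, 131 and 114 CPM. BCAT1 was at 500, 420 and 410 CPM, and the BCKDH kinase BCKDK at 38.8, 40.8 and 38.7 CPM. The transporter pair was lowest in SMC, and BCAT1 was highest there.

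Glycerol, by the same descriptions, is in SGC and SGI and not in SMC. It passes aquaglyceroporins such as AQP3 and is phosphorylated by glycerol kinase (GK). Of 14 listed genes 9 passed, and 0 were called. GK was at 3.04 CPM in SMC, 3.01 CPM in SGC and 2.88 CPM in SGI, and the glycerol 3-phosphate dehydrogenase GPD2 at 22.1, 21.1 and 23.4 CPM. AQP3 had counts of 60, 44 and 34, below the minimum. The acyltransferase gene GPAM had the widest ratio of SGC over SGI, -0.43, with 15.4 CPM in SMC, 12.7 CPM in SGC and 17.2 CPM in SGI.

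Of 25 genes of osmolyte transport and cell volume control, 21 passed and 0 were called. NFAT5, the transcription factor that responds to high tonicity, was at 233 CPM in SMC, 178 CPM in SGC and 208 CPM in SGI. The inositol transporter SLC5A3 was at 67.1, 48.8 and 58.2 CPM, and the taurine transporter SLC6A6 at 223, 198 and 194 CPM. Aldose reductase (AKR1B1) was at 67.2, 70.8 and 69.7 CPM. SMC was the highest for 3 of these 4, and the list's median for SMC against the mean was 0.15 on the log2 scale, with 17 of 21 above 0, against 0.03 and 56.8% for all genes. With library totals the list's median was 0.07, with 14 of 21 above 0, against -0.06 and 36.6% for all genes. The kinase gene SGK1 was at 147, 150 and 114 CPM, and the amino acid transporter SLC38A2 at 1042 CPM in SMC, 931 CPM in SGC and 839 CPM in SGI. Of 17 measured genes of hexose and polyol handling, 0 were called. ARRDC4, a glucose-sensing arrestin, was the highest in SMC by ratio at 5.02, 3.80 and 2.88 CPM.

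SMC against SGC and SGI compares a solution with mannitol, and a hold of 2 h, with both glycerol solutions held for 1 h. A gene was called where SMC differed in the same direction from each of them. At 2-fold, 2 genes were higher in SMC (0.0163%) and 21 were lower (0.171%), 0.187% of genes in either direction. At 1.5-fold, 24 were higher (0.195%) and 124 were lower (1.01%), 1.2% in either direction. Of these, 4 higher and 27 lower genes reached a count of 500 in at least 1 of the 3 libraries. The split depended on the count minimum. A gene low in SMC could pass it through SGC or SGI, and a gene high in SMC through SMC alone. With no minimum, 948 were higher and 958 lower in SMC at 1.5-fold, and 599 higher and 294 lower at 2-fold.

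COL2A1, the fibrillar collagen of cartilage, was at 18.9 CPM in SMC, 3.19 CPM in SGC and 4.12 CPM in SGI, a log2 difference of 2.37. The counting intervals were 2.20 to 2.95 against SGC and 1.87 to 2.53 against SGI. DMSO-frozen cells had 18.4 and 9.85 CPM of COL2A1 at 1 h and 0 h. Fresh cells had 16.0, 13.8 and 16.3 CPM at 0 h, after 1 h in DMSO and after 1 h of medium alone. SMC was therefore near the other libraries and SGC and SGI were below all of them. Other cartilage markers were not called. SOX9 was at 20.9 CPM in SMC, 16.1 CPM in SGC and 19.3 CPM in SGI, MATN3 at 8.83, 10.5 and 10.0 CPM, and the aggrecan gene ACAN had at most 2 counts in each of the 3 libraries. The other gene at least 2-fold higher in SMC was EML6, at 2.85, 0.929 and 1.12 CPM and picked out after its values were seen.

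The matrix protease ADAMTS5 was at 15.2 CPM in SMC, 9.95 CPM in SGC and 8.63 CPM in SGI, a log2 difference of 0.71. It was the sole gene called higher in SMC on the 42 pathway lists. All 22 measured collagen genes had a level above the mean of SGC and SGI, with a median log2 difference of 0.21, against 56.8% and 0.03 for all genes. The fibrillar collagen gene COL11A1 was at 5.16, 3.89 and 3.05 CPM, and COL1A1 at 44645 CPM in SMC, 34749 CPM in SGC and 32960 CPM in SGI. None of the 22 was called. COL4A4, a basement membrane collagen outside that list and picked out after its values were seen, was called at 5.21, 2.83 and 2.71 CPM. With library totals the median of the 22 was 0.13 and 18 were above the mean, against -0.06 and 36.6% for all genes.

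Among genes with at least 5 CPM, the largest differences lower in SMC were in long noncoding RNAs. Of all 21 genes lower in SMC at 2-fold, 11 were protein coding. The largest was LOC284454, which RefSeq names MIR23AHG, the host transcript of the miR-23a cluster. LOC284454 was at 6.61 CPM in SMC, 35.3 CPM in SGC and 26.0 CPM in SGI, a log2 difference of -2.19. It was at 7.69 and 13.5 CPM in DMSO-frozen cells at 1 h and 0 h. In fresh cells it was at 41.8 CPM at 0 h, 5.99 CPM after 1 h in DMSO and 68.0 CPM after 1 h of medium alone. As for FOS, the lowest of the 8 libraries was the fresh one held in DMSO and the highest the fresh one held in medium. LOC440944 (THUMPD3-AS1) was at 4.87, 17.4 and 14.6 CPM in SMC, SGC and SGI, a log2 difference of -1.70. AFAP1-AS1 was at 5.59, 15.4 and 17.5 CPM, a log2 difference of -1.55, and LOC100216546 (LINC01004) at 7.43, 17.4 and 17.8 CPM, a log2 difference of -1.24.

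For AFAP1-AS1 and LOC100216546 the SMC level was near that of the other 5 libraries. AFAP1-AS1 ranged there from 4.81 to 6.27 CPM and LOC100216546 from 3.06 to 7.22 CPM, so SGC and SGI were the high libraries. HNRNPU-AS1 was at 13.3 CPM in SMC, 30.8 CPM in SGC and 30.1 CPM in SGI, and at 10.7 to 20.1 CPM in the others. The strand setting of the counting is not given in the sources used here, so reads of an antisense RNA and of its partner cannot be told apart. The partner genes HNRNPU, AFAP1 and THUMPD3 differed between SMC and the mean by log2 -0.08, 0.01 and -0.06. KCNQ1OT1, a nuclear RNA transcribed within KCNQ1, was at 56.9 CPM in SMC, 96.8 CPM in SGC and 123 CPM in SGI.

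**Figure D5:**
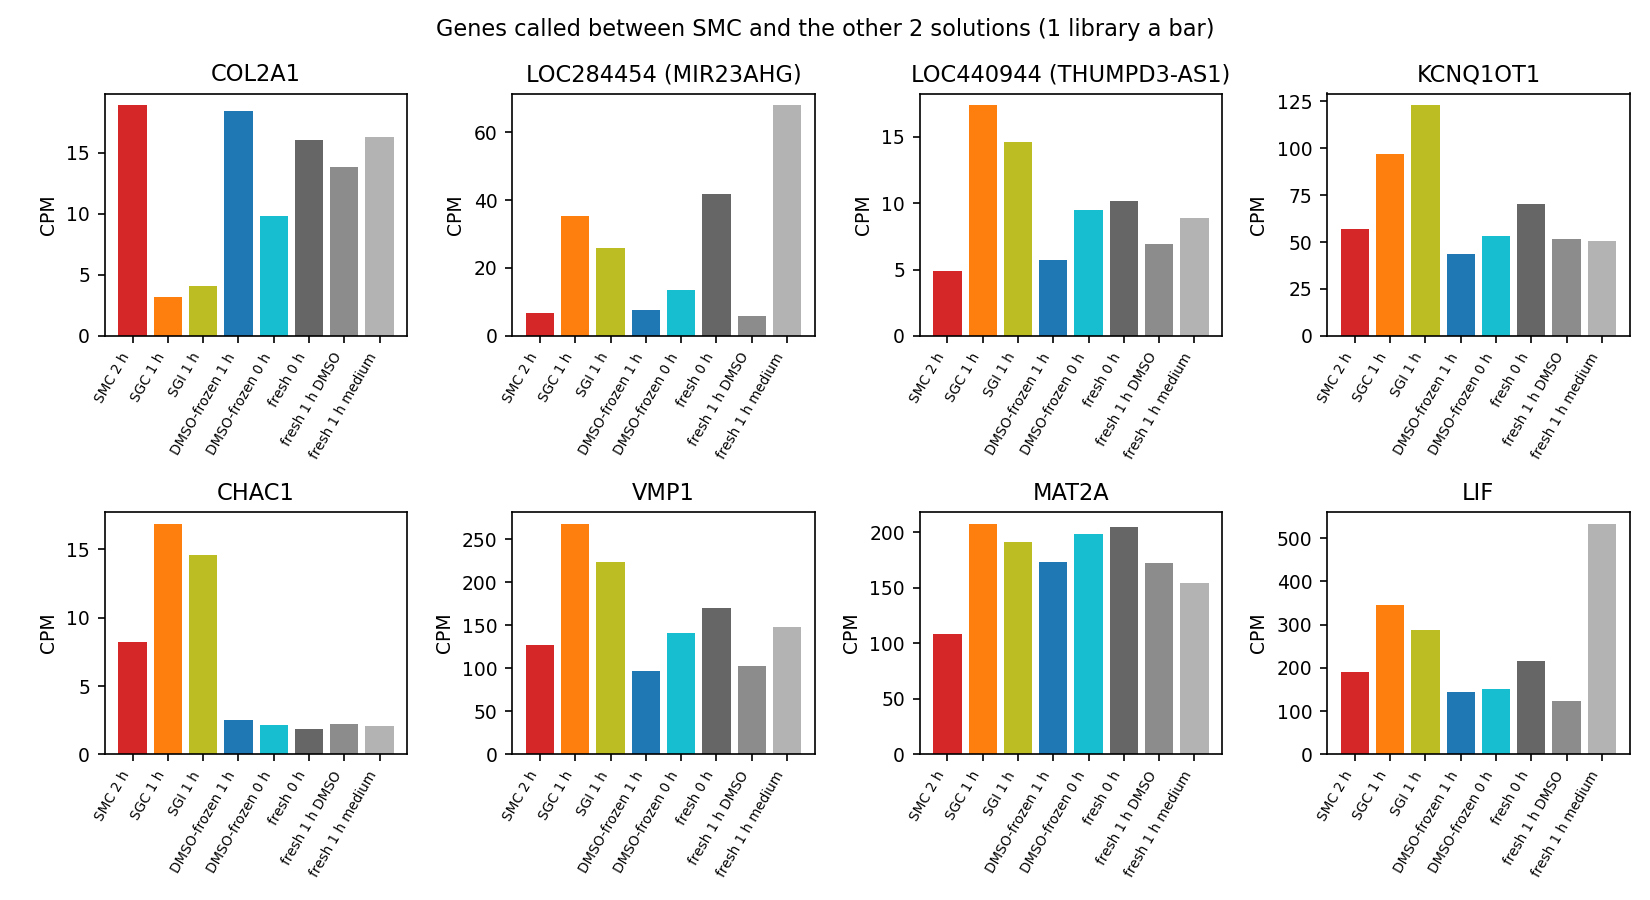
Levels in CPM on linear axes of 8 genes called between SMC and both other solutions, with 1 bar per library and no error bars because each condition had 1 library. COL2A1 is low in SGC and SGI alone, MIR23AHG is high in SGC, SGI and 2 fresh libraries, CHAC1 is above all DMSO-frozen and fresh libraries in all 3 solutions, and MAT2A is lowest in SMC.

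Noncoding genes and pseudogenes made up more of the genes lower in SMC than of all genes. By the RefSeq gene types, 34 of the 124 were noncoding RNAs (27.4%) and 14 were pseudogenes (11.3%), against 3.44% and 1.46% of the 12289 genes. The SGC and SGI comparison at 1.5-fold held an excess too. Noncoding RNAs were 15.4% of the 52 genes higher in SGC and 12.1% of the 99 lower, and pseudogenes 3.85% and 8.08%. Of the 24 genes higher in SMC, 0 were noncoding RNAs and 1 was a pseudogene. The gene types were not matched for level. A gene low in SMC could pass the count minimum through SGC or SGI, which bears most on weakly expressed genes. The shares by gene type are given at that minimum alone. Of 423 noncoding genes 8.04% were lower in SMC, and of 180 pseudogenes 7.78%, against 0.596% of 11585 protein-coding genes. The median log2 difference of SMC from the mean was -0.17 for noncoding genes, -0.11 for pseudogenes and 0.03 for coding genes. The noncoding share of all counts was nonetheless 1.40% in SMC, 1.41% in SGC and 1.55% in SGI, and the most abundant noncoding RNA, MALAT1, was at 8601, 7717 and 8094 CPM. The pseudogene RPL32P3 was at 3.04, 7.12 and 6.23 CPM, and its near-identical parent RPL32 at 445, 512 and 486 CPM. Reads can be split between such copies, and likewise in the POTE family, where POTEM was at 2.70, 5.49 and 6.36 CPM.

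Among coding genes lower in SMC at 2-fold, FOS was the most abundant, and MARCH1, PVRIG, C15orf62 and POTEM also reached 5 CPM. MARCH1 (MARCHF1), a membrane-bound ubiquitin ligase, was at 3.57 CPM in SMC, 9.29 CPM in SGC and 9.36 CPM in SGI. PVRIG, a receptor of the nectin pathway, was at 3.67, 8.10 and 7.82 CPM, and C15orf62 at 2.27, 4.69 and 5.15 CPM. Of the 26 measured immediate early factors, FOS, FOSB and ATF3 were called lower in SMC and 0 were called higher, beside 1.01% and 0.195% of all genes. The list's median was -0.17, against 0.03 for all genes, and 10 of the 26 were above 0. FOSB and ATF3 differed from the mean of SGC and SGI by log2 -1.23 and -1.10. DUSP1, at -1.21, was the sole called member of 14 measured MAP kinase feedback genes.

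The amino acid response is the set of genes that ATF4 turns on when amino acids are short or protein folding is under strain. Of 36 measured genes, 31 were lower in SMC than the mean of SGC and SGI and 5 were higher, against 56.8% of all genes higher, with a median log2 difference of -0.15. CHAC1 and ATF3 were called lower. CHAC1, which degrades glutathione, was at 8.25 CPM in SMC, 16.9 CPM in SGC and 14.6 CPM in SGI, against 2.15 to 2.52 CPM in DMSO-frozen cells and 1.89 to 2.24 CPM in fresh cells. The serine synthesis gene PSAT1 was at 35.4, 60.3 and 53.1 CPM in SMC, SGC and SGI, and asparagine synthetase (ASNS) at 32.1, 51.3 and 43.9 CPM. Both missed the 1.5-fold limit against SGI. DMSO-frozen cells had 19.2 to 19.6 CPM of PSAT1 and 19.4 to 20.3 CPM of ASNS. For all 3 genes SMC lay between the DMSO-frozen libraries and the other 2 solutions. ATF4 itself was at 296 CPM in SMC, 305 CPM in SGC and 296 CPM in SGI. The 20 tRNA synthetase genes had a median of -0.11, with 2 above the mean and none called. Lists of other functions leaned the same way, so the lean was not particular to the amino acid response. Above the mean were 2 of 30 proteasome, 8 of 44 respiratory chain, 17 of 77 ribosomal protein and 3 of 34 replication genes. Their medians were -0.11, -0.11, -0.05 and -0.13. Collagens and matrix glycoproteins went the other way, with 22 of 22 and 23 of 26 above.

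Other genes that were lower in SMC served several roles. LIF, a cytokine of the interleukin 6 family, was at 191 CPM in SMC, 346 CPM in SGC and 287 CPM in SGI, against 144 and 151 CPM in DMSO-frozen cells at 1 h and 0 h. Of the replication genes GINS2 and PRIM1 were called, at 5.74, 8.67 and 9.62 CPM for the helicase subunit gene GINS2 and 2.85, 4.65 and 5.07 CPM for the primase gene PRIM1. MAT2A and VMP1 were picked out after their values were seen. MAT2A, which makes S-adenosylmethionine, was at 108 CPM in SMC, 208 CPM in SGC and 191 CPM in SGI, and at 154 to 205 CPM in the other 5 libraries. It was thus lower in SMC than anywhere else. VMP1, a membrane protein of autophagy, was at 127, 268 and 223 CPM in SMC, SGC and SGI, and at 97.3 to 170 CPM elsewhere, so there SGC and SGI were above every other library.

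Called genes were also set against the range of the DMSO-frozen and fresh libraries. For 66 of the 124 the SMC level lay within that range, and for 24 of 124 the mean of SGC and SGI did. Over all genes compared, 35.5% lay within it in SMC, 34.7% in the mean of SGC and SGI, 34.1% in SGC and 34.2% in SGI. Of the 24 genes higher in SMC, 2 lay within that range in SMC and 12 in the mean of SGC and SGI. For the SGC and SGI comparison, 21 of the 52 genes higher in SGC lay within the range in SGC and 28 in SGI. Of the 99 genes lower in SGC, 46 lay within it in SGC and 18 in SGI. In every called set the side with the lower level lay within the range more often. Genes could pass the count minimum through their highest library and were called by these same levels. The counts are therefore no separate support for which solution departed from the other libraries. The DMSO-frozen pair gives the only comparison of hold times within 1 solution in frozen cells. It spans 0 h to 1 h, whereas the osmolyte solutions were held for 1 h or 2 h. Of the 124 genes lower in SMC, 91 were lower at 1 h than at 0 h in DMSO (73.4%, against 51.9% of all genes). By at least 1.5-fold 21 were lower, out of 67 genes that were so in all (0.545%). Of the 24 genes higher in SMC, 16 were higher at 1 h in DMSO, against 48.1% of all genes. SGC and SGI were both held for 1 h. Of the 99 genes lower in SGC than in SGI, 31 were lower at 1 h in DMSO, against 51.9% of all genes. Of the 52 higher in SGC, 25 were higher at 1 h in DMSO. In fresh cells, 83 of the 124 were lower after 1 h in medium than at 0 h (66.9%, against 49.8% of all genes) and 18 by at least 1.5-fold, out of 260 in all (2.12%). FOS, at 77.8 CPM at 1 h and 156 CPM at 0 h, and LOC284454, at 7.69 and 13.5 CPM, were among the 91. In fresh cells both were higher after 1 h in medium, with log2 ratios of 0.47 and 0.70. Whether the longer hold has a part in the SMC values was not tested, since no library of SMC cells had another hold time.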

How the data were processed

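RNA of 8 samples was sequenced, 1 library per condition. Per the submitters' processing notes, reads were handled with CASAVA 1.9, TopHat and HTSeq against hg19. Neither the annotation release nor the strand setting is given in the sources used here. The authors deposited raw counts per gene. They also deposited RPKM values, per kilobase of coding length, in the same table. All deposited counts are even, and no source says why, so intervals treat each counted unit as having entered as 2. Of 23398 rows, 49 identifiers occurred more than once. Of these, 41 with identical counts were kept once and 8 with different counts were kept apart, which left 23354 entries. No row named no gene.

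Counts of all 8 libraries were normalized together with trimmed mean (TMM) factors and turned into log2 CPM with a prior count of 2 in edgeR 4.0.16 (R 4.3.3). Genes with a count of 100 or more in at least 1 of the 3 libraries were compared. A gene was called between SGC and SGI at 2-fold or more, and for SMC where it was as far in the same direction from each of SGC and SGI. For lists the limit was 1.5-fold. The size of an SMC difference is log2 SMC minus the mean of log2 SGC and SGI. Intervals are exact binomial (Clopper-Pearson) at 95% and cover counting error only. Genes named were, per comparison and direction, up to the 12 largest called at 2-fold with at least 5 CPM in 1 of the 3 libraries, up to 4 called members of each of 42 pathway lists, and members of the lists on the solutions' components. The members and lists were chosen with earlier results of these data known. With 1 library per condition no test was run. The scaling and the log2 ratio of SGC over SGI were tested on simulated counts with known fold changes. The rule for SMC was not tested that way. Alternatives were scaling by library totals, by DESeq2 1.42.0 size factors or over the 3 libraries alone, a minimum count of 500 or none, a prior count of 0.5, and the deposited RPKM with a pseudocount of 0.01. Promoters, gene types and current names were taken from RefSeq (GRCh38.p14), and other coordinates are hg19 as deposited.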

Additional observations from a re-analysis of the deposited data

How the results depend on the processing

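No paired analysis was possible because each condition had 1 library. Counts of calls depended on the minimum count and, in both comparisons, on the scaling. At 2-fold there were 4 genes higher and 14 lower in SGC than in SGI, and 2 higher and 21 lower in SMC. SGC stood apart from SMC and SGI at 1 higher and 2 lower genes, and SGI from SMC and SGC at 3 higher and 1 lower. Scaling by library totals gave 1 gene higher in SGC, 34 lower in SMC, 0 for SGC apart and higher, and 6 for SGI apart and higher. A minimum count of 500 gave 1 higher and 1 lower in SGC, 1 higher and 6 lower in SMC, 0 for SGC apart and lower, and 0 higher and 0 lower for SGI apart. With no minimum, 493 were higher and 726 lower in SGC, 599 higher and 294 lower in SMC, 178 higher and 342 lower in SGC apart, and 280 higher and 194 lower in SGI apart. RPKM gave 1 gene higher in SGC and 0 for SGC apart and higher. Without SGC or without SGI, 7 to 10 genes were higher and 40 to 54 lower in SMC, since only 1 pair is then required.

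At 1.5-fold, library totals gave 26 higher and 163 lower in SGC, 14 higher in SMC, 12 for SGC apart and higher, and 68 higher and 8 lower for SGI apart. A minimum count of 500 gave 13 higher and 3 lower in SGC, 4 higher and 27 lower in SMC, 9 higher and 0 lower for SGC apart, and 1 higher and 0 lower for SGI apart. With no minimum, 1344 were higher and 1922 lower in SGC, 948 higher and 958 lower in SMC, 691 higher and 869 lower in SGC apart, and 997 higher and 568 lower in SGI apart. RPKM gave 28 higher in SGC, 11 for SGC apart and higher, and 51 higher and 8 lower for SGI apart. Without SGC or without SGI, 93 to 94 genes were higher and 197 to 269 lower in SMC. Over the 42 lists, 14 genes were higher and 3 lower in SGC, and 1 higher and 9 lower in SMC. A limit of 2-fold gave 1 and 0 in SGC and 0 and 1 in SMC. Library totals gave 6 lower in SGC, and 0 higher and 15 lower in SMC.

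Of the values of single genes named at 2-fold, 132 stayed within the counting interval of the reported value under these alternatives. Those include the changed count minimums, which cannot move the ratio of a single gene. That interval is narrow for abundant genes and wide for rare ones. The 3 outside it were all of FOS in SMC, at -1.50 with library totals, -1.02 against SGI alone and -1.82 against SGC alone. None changed sign. Each condition had 1 library, so no difference here can be set against the spread between cultures, and the cause of the moved counts was not tested.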
